A study of Homo sapiens with 10 samples.

Results

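The genes described here are 43 genes of DNA replication and S phase, chosen by symbol for their known roles. All 43 symbols were found among the 23426 gene symbols measured in each of 10 RNA-seq samples, and all 43 passed the limit used for testing, a mean above 0.1 FPKM in at least 1 group (16071 genes passed in all). FPKM divide the fragments of a gene by its transcript length and by the total mapped in that sample, so that levels of different genes are on a scale per length. By role, the genes comprised 10 of origin licensing, 6 of helicase activation, 7 of polymerases, 7 of the sliding clamp and its loaders, 3 of single-strand binding, 2 of Okazaki fragment joining, 4 of nucleotide supply and 4 of G1/S control and S-phase chromatin.

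The samples came from 2 established breast cancer lines, MDA-MB-468 (triple-negative and basal-like) and ZR75-1 (luminal), each exposed for 6 h to the solvent DMSO or to PKC412 at 1 µM. PKC412, or midostaurin, is a small molecule that inhibits many protein kinases. Each line had 2 DMSO samples and 3 PKC412 samples. The labels do not say whether the samples of a group were separate cultures, so p-values measure the spread between these samples, which may be technical. Each subtype was represented by a single line, and a difference between the lines is not a difference between subtypes.

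Preparation for DNA replication begins in G1, when the origin recognition complex, CDC6 and CDT1 load the ring-shaped MCM helicase onto DNA. On entry into S phase, CDC45 and the GINS complex activate the helicase, polymerases copy both strands behind it, and the clamp PCNA, loaded by the RFC complex, holds the polymerases on DNA. Many of these genes are transcribed at the G1/S boundary by E2F factors, which the retinoblastoma protein restrains until cyclin-dependent kinases inactivate it, so that their RNA levels are widely read as a sign of proliferation. In bulk RNA, fewer cells in S phase and less RNA of these genes per cell cannot be told apart.

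Many of the genes shared a sequence feature. Known E2F targets are among the genes chosen, so a high share of E2F sites is not independent of the choice. A promoter window of 300 bases (250 before to 50 after the transcription start, RefSeq, GRCh38.p14) was held for 36 of the 43 genes. These include PCNA-AS1, whose window lies within the PCNA gene and holds E2F sites. An exact E2F site (TTTCCCGC, TTTCGCGC, TTTGCCGC or TTTGGCGC, on either strand) was found in 20 of these 36 windows (55.6%), against 908 of 27305 windows of the same length over all genes (3.33%) and 4.93% of the 10752 tested genes with a window. The NF-Y box CCAAT, also on either strand, was found in 22 of 36 (61.1%) against 35.7% of all windows, and both motifs together in 12 (33.3%) against 1.29%. Sites of 7 genes that the results turn on are printed 5′ to 3′ on the gene's strand, with the E2F site in capitals. A site on the other strand appears as its reverse complement. The MCM3, MCM7 and E2F1 windows each held a second site further upstream, and the MCM2 site overlaps one on the other strand.
MCM3 (helicase), chr6:52284729-52284756, minus strand: gttcggaagtTTTCGCGCcggggtggag
MCM7 (helicase), chr7:100101389-100101416, minus strand: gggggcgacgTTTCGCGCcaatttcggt
PCNA (clamp), chr20:5126664-5126691, minus strand: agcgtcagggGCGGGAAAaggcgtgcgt
RFC3 (clamp loader), chr13:33818084-33818111, plus strand: tttggagctcGCGGGAAAacttgtctct
TYMS (nucleotide supply), chr18:657604-657631, plus strand: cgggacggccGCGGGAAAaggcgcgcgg
E2F1 (G1/S control), chr20:33686388-33686415, minus strand: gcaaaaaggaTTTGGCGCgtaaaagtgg
MCM2 (helicase), chr3:127598403-127598430, plus strand: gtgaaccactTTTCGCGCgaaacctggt
The MCM2 window is shown beside them because MCM2 had the smallest difference in level between the lines. A match describes the letters of the window only.

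The libraries differed in a property that bears on every comparison with PKC412. Their FPKM summed to between 599228 and 835069, and the depth in reads is unknown, so precision was taken from the replicates alone. In each sample, the log2 deviation of genes from the mean of their line was set against transcript GC content. In MDA-MB-468 the slope ran along the treatment. It was 0.373 and 0.0571 log2 units per 10 GC points with DMSO, and -0.286, -0.0247 and -0.119 with PKC412. The effect of the drug and that slope therefore cannot be told apart in this line. In ZR75-1 the slope was high in a sample of each treatment, DMSO 1 (0.315) and PKC412 2 (0.339), and lower in the other DMSO sample (-0.191) and the other PKC412 samples (-0.107 and -0.356). The lines matched their labels by their markers: the 8 basal markers summed to 2453 to 2705 FPKM in MDA-MB-468 and 20.1 to 26.2 in ZR75-1, and all 8 luminal markers were higher in ZR75-1 in DMSO, as was CDH3 of the basal list.

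Most of the replication genes were more highly expressed in MDA-MB-468 than in ZR75-1, with the clamp PCNA, the thymidylate synthase TYMS and the helicase subunit MCM3 furthest apart in DMSO on the log2(FPKM + 1) scale. In DMSO, 29 of the 43 genes were higher in MDA-MB-468 at an adjusted p-value under 0.05 (limma, Benjamini-Hochberg over all 16071 genes) and 0 were lower. Of all genes tested, 26.5% were higher and 15.9% lower. At an unadjusted p-value under 0.05 the counts were 32 higher and 1 lower (RPA3), 74.4% and 2.33% of the 43, where all genes gave 30.6% and 18.8%. The median difference of the 43 genes was 1.34 on the log2(FPKM + 1) scale, against 0.11 over all genes tested. In PKC412, 40 of the 43 genes were higher in MDA-MB-468 and 0 lower, where 37.0% of all genes were higher and 21.6% lower, with a median of 1.59 against 0.20. Both comparisons rest on different samples of the same lines. In every MDA-MB-468 sample, treated or not, 30 of the 43 genes lay above every ZR75-1 sample and 0 lay below; over all genes these shares were 29.7% and 18.1%. Rescaling the samples by median ratios, which brings the median of all genes to 0 in DMSO, left the median of the replication genes at 1.07 in DMSO and 1.16 in PKC412, with 40 of 43 above 0 in each. With this rescaling E2F1, MCM5 and TK1 no longer passed in DMSO, and E2F1, RPA2, TK1 and UHRF1 no longer passed in PKC412. Without MDA-MB-468 DMSO 2, 8 of the 29 DMSO calls were lost (GINS1, GINS4, POLA1, POLE2, RFC4, RPA1, RPA2 and RRM2), and without ZR75-1 DMSO 1, 6 were lost (GINS1, POLA1, POLE2, RFC4, RPA1 and RRM2).

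**Figure D1:**
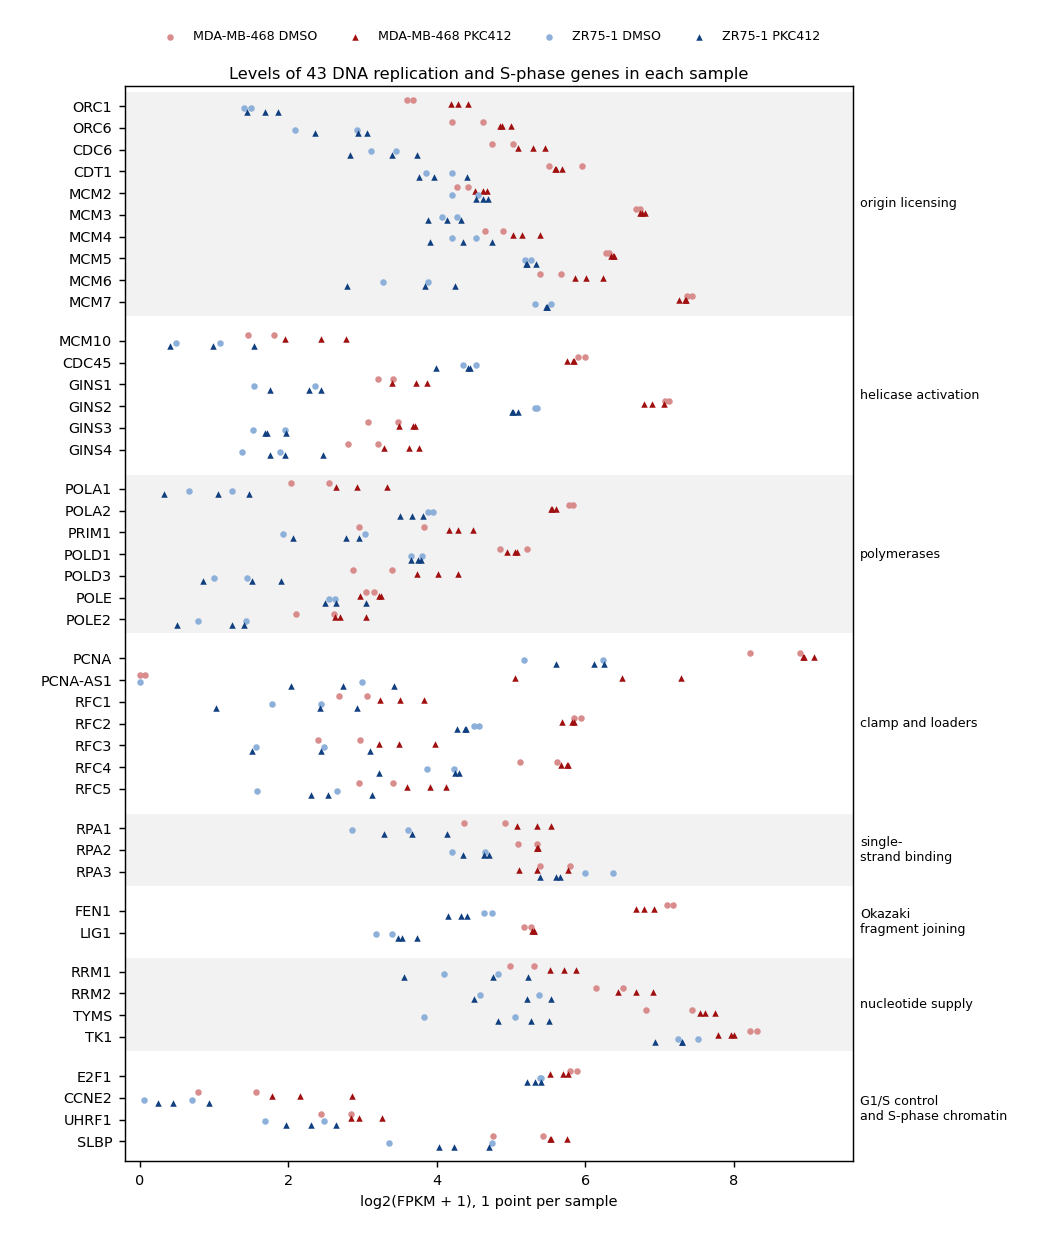
The level of each of the 43 genes in each sample, as log2(FPKM + 1) on the horizontal axis, with circles for DMSO and triangles for PKC412, red for MDA-MB-468 and blue for ZR75-1, grouped by role. For 30 genes all 5 red points lie to the right of all 5 blue points, while MCM2, POLE and RPA3 are among the 13 whose lines overlap.

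The replication genes were among the well expressed genes of both lines. In MDA-MB-468 in DMSO, the median gene of the 43 was at 31.9 FPKM, at the 84.9 percentile of the tested genes, whose median was 2.64. In ZR75-1 it was at 12.3 FPKM, at the 75.1 percentile, against 2.16. The highest levels in MDA-MB-468 were those of PCNA (385 ± 126 FPKM, SD, n = 2) and TK1 (305 ± 14), whose ranges overlapped, followed by MCM7 (168 ± 5.96). In ZR75-1 the order began with TK1 (167 ± 22.5), RPA3 (72.2 ± 13.3) and PCNA (54.9 ± 27.9), of which RPA3 and PCNA overlapped. Apart from PCNA-AS1, the lowest in both lines was CCNE2, at 1.34 ± 0.87 and 0.338 ± 0.416 FPKM.

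PCNA, the sliding clamp, showed the largest difference between the lines in DMSO on the log2(FPKM + 1) scale. There it measured 296 and 474 FPKM in MDA-MB-468 and 35.2 and 74.7 FPKM in ZR75-1. In PKC412 it measured 542, 484 and 491 FPKM in MDA-MB-468 and 68.4, 47.5 and 75.3 FPKM in ZR75-1. The lowest MDA-MB-468 sample was far above the highest ZR75-1 sample, whatever the treatment. The difference was 2.84 ± 0.37 (log2, SE) in DMSO, a ratio of means of 7.0, with an adjusted p-value of 0.00042 in limma, and 2.99 ± 0.30 in PKC412.

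TYMS, the thymidylate synthase that makes dTMP, was next on that scale, which lowers the differences of low genes. By the ratio of means ORC1, at 11.5 ± 0.499 FPKM in MDA-MB-468 and 1.74 ± 0.121 FPKM in ZR75-1, came between PCNA and TYMS in DMSO (6.60). TYMS measured 112 and 172 FPKM in MDA-MB-468 and 13.2 and 32.2 FPKM in ZR75-1 in DMSO. With PKC412 it measured 214, 185 and 195 FPKM against 37.4, 27.4 and 44.8 FPKM. Every MDA-MB-468 sample was above every ZR75-1 sample. The difference in DMSO was 2.69 ± 0.40 (log2, SE), with a ratio of means of 6.27 and an adjusted p-value of 0.00082.

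MCM3, a subunit of the helicase ring, had the tightest replicates of the 3. It measured 101 and 106 FPKM in MDA-MB-468 and 15.8 and 18.3 FPKM in ZR75-1 in DMSO. The values with PKC412 were 111, 105 and 108 FPKM against 16.6, 13.7 and 19.0 FPKM. The spread within a line was thus small beside a difference of 2.54 ± 0.15 (log2, SE), with a ratio of means of 6.07 and an adjusted p-value of 5.1e-06.

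Within origin licensing, the 6 subunits of the helicase ring gave differences of very unequal size. In DMSO the difference was 2.54 for MCM3, 1.98 ± 0.10 for MCM7, 1.95 ± 0.43 for MCM6 and 1.07 ± 0.09 for MCM5, all past the threshold. MCM4 differed by 0.40 ± 0.26 (adjusted p-value 0.27) and passed in PKC412, at 0.85 ± 0.22. MCM2 stood at 18.3 and 20.4 FPKM in MDA-MB-468 and 17.4 and 22.4 FPKM in ZR75-1, so that the lines overlapped, with a difference of -0.03 ± 0.14 (adjusted p-value 0.91). In PKC412 the lines again overlapped, at 24.5, 21.9 and 23.5 FPKM against 22.1, 23.5 and 24.7 FPKM. The sign for MCM2 turned when samples were rescaled to equal sums (0.06 in DMSO). The recognition subunits ORC1 (2.19 ± 0.17) and ORC6 (1.9 ± 0.32), the loader CDC6 (1.60 ± 0.28) and its partner CDT1 (1.70 ± 0.24) were higher in MDA-MB-468, so that 8 of 10 licensing genes passed in DMSO and 9 of 10 in PKC412.

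The helicase activators were also higher in MDA-MB-468, 5 of 6 in DMSO and 6 of 6 in PKC412. Of the GINS subunits, which with CDC45 and the MCM ring form the active helicase, GINS2 differed by 1.76 ± 0.11, GINS3 by 1.53 ± 0.21 and GINS1 and GINS4 by 1.36 each. CDC45 itself differed by 1.5 ± 0.16. MCM10, which helps to set the activated helicase in motion, was low in both lines, at 2.12 ± 0.52 and 0.766 ± 0.510 FPKM in DMSO, and passed in PKC412 (1.41 ± 0.33) but not in DMSO. With the GC and length adjustment MCM10 passed in DMSO as well (0.79, adjusted p-value 0.013).

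Of the polymerase genes, 5 of 7 passed in DMSO and 6 of 7 in PKC412. POLA2, the second subunit of the primer-making polymerase alpha, was at 55.0 ± 1.33 FPKM in MDA-MB-468 and 14.1 ± 0.457 FPKM in ZR75-1. POLD3, an accessory subunit of the lagging-strand polymerase delta, differed by 1.91 ± 0.37, and POLD1, its catalytic subunit, by 1.30 ± 0.14. POLE, the catalytic subunit of the leading-strand polymerase epsilon, differed by 0.52 ± 0.20 in DMSO (adjusted p-value 0.073) and 0.42 ± 0.17 in PKC412 (0.059). POLE passed in both treatments with the GC and length adjustment (0.52, adjusted p-value 0.0052, and 0.49, adjusted p-value 0.0020). Its partner POLE2 passed in both treatments as deposited (1.25 ± 0.36 and 1.74 ± 0.29), but not in DMSO with the replicate block.

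The clamp loaders and the single-strand binding complex were uneven. RFC2 (1.36 ± 0.11) and RFC4 (1.32 ± 0.35) were higher in MDA-MB-468 in DMSO, while RFC1, RFC3 and RFC5 passed in PKC412 and not in DMSO. RPA, which coats single-stranded DNA, is a complex of RPA1, RPA2 and RPA3. RPA1 (1.40 ± 0.35) and RPA2 (0.80 ± 0.18) were higher in MDA-MB-468, whereas RPA3 was at 40.9 and 54.7 FPKM in MDA-MB-468 and 62.9 and 81.6 FPKM in ZR75-1. RPA3 was thus the only one of the 43 genes with both DMSO samples of ZR75-1 above both of MDA-MB-468, at -0.59 ± 0.24 (adjusted p-value 0.086). In PKC412 the lines overlapped for RPA3 (-0.14 ± 0.20).

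Both genes of Okazaki fragment joining were among the clearest. FEN1, the flap nuclease, was at 140 ± 5.69 FPKM in MDA-MB-468 and 24.8 ± 1.51 FPKM in ZR75-1 (2.46 ± 0.13, adjusted p-value 2.6e-06), and LIG1, the ligase, at 36.4 ± 1.86 and 8.8 ± 1.0 FPKM. Of the nucleotide genes, TK1 (thymidine kinase) differed by 0.87 ± 0.16 (with median ratios 0.56, adjusted p-value 0.28) and RRM2, the regulated subunit of ribonucleotide reductase, by 1.34 ± 0.37. RRM1, the other subunit, passed in PKC412 (1.19 ± 0.40) but not in DMSO. Among the genes of G1/S control, E2F1 was past the threshold with a small difference, 56.4 ± 2.94 against 41 ± 0.234 FPKM (0.45 ± 0.12, adjusted p-value 0.014). With median ratios the E2F1 difference was 0.15 in DMSO (adjusted p-value 0.74) and turned to -0.07 in PKC412 (adjusted p-value 0.82). CCNE2 (cyclin E2), UHRF1 (which binds hemimethylated DNA) and SLBP (which binds histone mRNA) passed in PKC412 and not in DMSO. CCNE2 passed in DMSO with the GC and length adjustment (0.80, adjusted p-value 0.029). The UHRF1 difference in PKC412 was near the threshold (0.71 ± 0.26, adjusted p-value 0.046) and did not pass with a pseudocount of 0.1, no filter, median ratios, equal sums or the replicate block. Neither UHRF1 nor RFC3 passed in PKC412 when any MDA-MB-468 sample, ZR75-1 PKC412 1 or ZR75-1 PKC412 2 was left out. For none of the 43 genes was the change in the difference between lines from DMSO to PKC412 itself past the threshold.

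**Figure D2:**
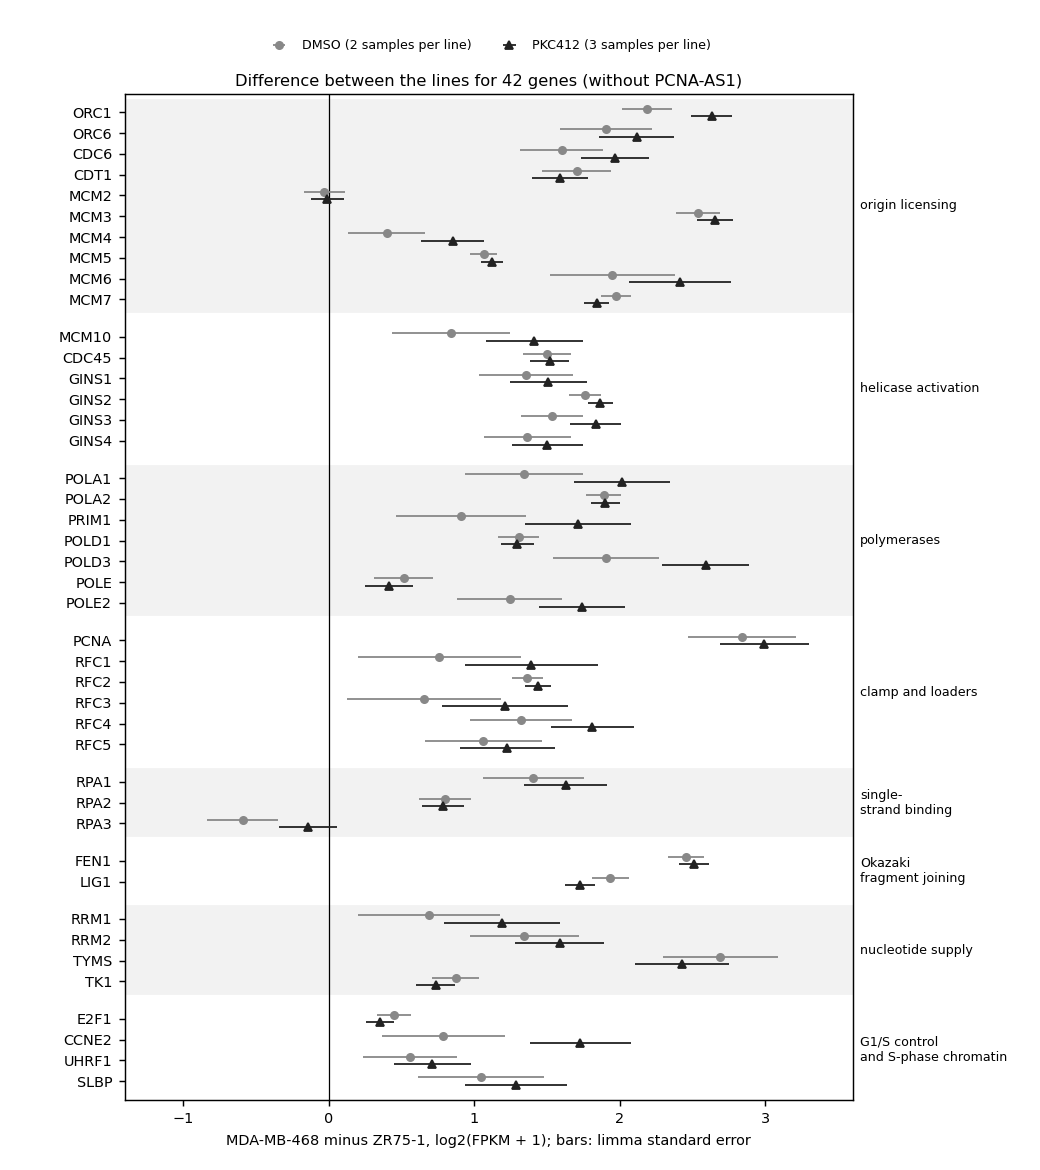
The difference between the lines, MDA-MB-468 minus ZR75-1, for 42 genes on the log2(FPKM + 1) scale, grey circles for DMSO (2 samples per line) and black triangles for PKC412 (3 per line), with bars for the limma standard error. Of the 42 genes 40 lie right of 0 in each treatment, MCM2 lies close to 0, and RPA3 lies left of it.

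Genes with and without an E2F site were compared by their medians, without a test. In DMSO the median difference was 1.57 for the 20 genes with a site, of which 15 passed, and 1.31 for the 16 without, of which 10 passed. In PKC412 the medians were 1.84 and 1.48. MCM2 and MCM3 hold a site of the same letters near the start, and their differences were the smallest and among the largest. The transcript GC content of the genes, which ranged from 36.9% to 65.0%, had a Pearson r of 0.03 and a Spearman rho of 0.09 with the difference between lines in DMSO across 42 genes, which share their libraries and are not independent.

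With PKC412, few replication genes passed the adjusted threshold. In MDA-MB-468, 1 of the 43 genes, PCNA-AS1, was higher at an adjusted p-value under 0.05 and 0 were lower in limma. Of all genes, 0.691% were higher and 0.566% lower. PCNA-AS1 shares 85.7% of its bases with a PCNA exon, so its FPKM may include reads of PCNA. At an unadjusted p-value under 0.05, 4 were higher (ORC1, POLD3, PCNA-AS1 and CCNE2) and 1 lower (FEN1), 9.30% and 2.33% of the 43, where all genes gave 11.1% and 5.25%. The median log2 difference of the 43 genes was 0.38, against 0.11 over all genes, and 32 of 43 were above 0. After FPKM were adjusted in each sample for GC content and transcript length, the median was 0.05 and 25 of 43 were above 0. With rescaling by median ratios the median was 0.14, and with rescaling to equal sums 0.57, so that the size of the shift depended on the scaling while its sign was the same in these 4 versions.

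In ZR75-1, 0 genes rose and 0 fell among the 43 in limma, against 0.747% and 0.199% of all genes, and the lowest adjusted p-value was 0.25 (FEN1). At an unadjusted p-value under 0.05, 1 was higher (LIG1) and 4 lower (GINS2, POLA2, RPA3 and FEN1), 2.33% and 9.30% of the 43, where all genes gave 8.05% and 3.12%. The median was 0.05 with the FPKM as deposited and turned to -0.10 with median ratios and -0.07 with the GC and length adjustment, so that no direction holds for the set in this line. The difference of the PKC412 effect between the lines was past the threshold for 0 of the 43 genes in either direction in limma, where 0.0684% of all genes were higher in MDA-MB-468 and 0.199% lower. At an unadjusted p-value under 0.05 only PCNA-AS1 was higher in that comparison and 0 were lower (2.33% and 0% of the 43), where all genes gave 3.32% and 3.73%. The lowest adjusted p-value, also for PCNA-AS1, was 0.29.

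**Figure D3:**
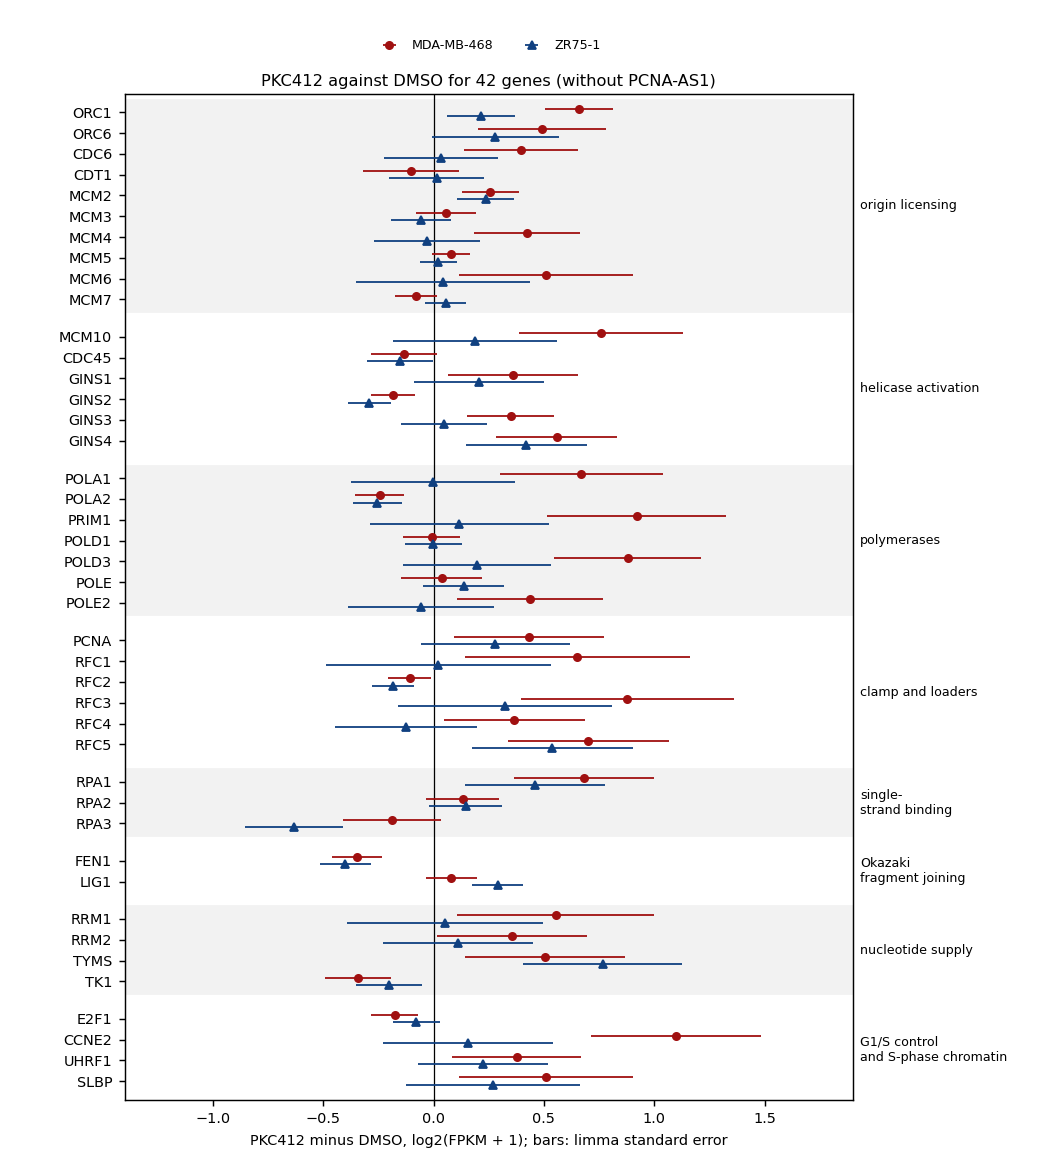
PKC412 minus DMSO for 42 genes on the log2(FPKM + 1) scale, red circles for MDA-MB-468 and blue triangles for ZR75-1, with bars for the limma standard error, grouped by role. No gene shown passed the threshold in either line. Of the red points 31 lie above 0 with the FPKM as deposited. CDC45, GINS2, POLA2, POLD1, RFC2, RPA3, FEN1, TK1 and E2F1 lie below 0 in both lines, POLD1 very close to it.

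After PCNA-AS1, the largest differences with PKC412 in MDA-MB-468 were those of CCNE2, PRIM1, POLD3 and RFC3, none past the threshold. CCNE2, the cyclin that drives CDK2 at the entry into S phase, measured 0.718 and 1.95 FPKM in DMSO and 6.27, 2.45 and 3.48 FPKM in PKC412. Every treated sample was above both DMSO samples, but the DMSO samples themselves differed widely. The log2 difference was 1.1 ± 0.39 (SE, adjusted p-value 0.25 in limma), and the ratio of means was 3.04. CCNE2 and PCNA-AS1 were the 2 genes whose mean was at least 3-fold higher; with such ratios, 6.14% of all genes above 0.1 FPKM were higher and 1.07% lower. In ZR75-1 no replication gene reached that ratio, where 3.15% of all genes were higher and 0.932% lower.

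PRIM1, the catalytic subunit of primase, measured 6.75 and 13.2 FPKM in DMSO and 21.5, 16.9 and 18.5 FPKM in PKC412 in MDA-MB-468 (0.92 ± 0.41, adjusted p-value 0.31). POLD3 measured 6.30 and 9.55 FPKM in DMSO and 18.5, 12.4 and 15.1 FPKM in PKC412 (0.88 ± 0.33, adjusted p-value 0.27). RFC3 measured 4.28 and 6.81 FPKM in DMSO and 14.7, 8.29 and 10.3 FPKM in PKC412 (0.88 ± 0.48, adjusted p-value 0.35). In all 3 the treated samples lay above the DMSO samples, with DMSO 1 lowest and PKC412 1 highest. These were also the samples with the highest and the lowest GC slope of the line, and CCNE2, PRIM1, POLD3 and RFC3 have GC contents below the median of the 43 genes. With the GC and length adjustment the differences were 0.62 for CCNE2, 0.56 for PRIM1, 0.34 for POLD3 and 0.35 for RFC3, none past the threshold. With a sample left out they ran from 0.71 to 1.49 for CCNE2, 0.48 to 1.36 for PRIM1, 0.61 to 1.14 for POLD3 and 0.60 to 1.16 for RFC3. The lowest value of each was that without DMSO 1 and the highest that without DMSO 2.

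Genes of the same complex lay on both sides of 0 in MDA-MB-468. The PKC412 samples did not overlap the DMSO samples for 33 genes, 26 with PKC412 higher (among them ORC1, CDC6, MCM6, POLA1, RFC1 to RFC5 without RFC2, RPA1 and TYMS) and 7 with PKC412 lower (MCM7, CDC45, GINS2, POLA2, FEN1, TK1 and E2F1). Over all genes, 39.6% lay above and 16.3% below in the same way. With the GC and length adjustment the counts were 15 and 10, against 28.5% and 23.6% of all genes. Of the 7 lower genes, MCM7, CDC45, GINS2 and E2F1 turned in sign when the samples were rescaled to equal sums, and POLA2, FEN1 and TK1 did not turn in any version. Of the 26 higher genes, MCM5 and LIG1 were below 0 with median ratios, and CDC6, MCM5, MCM6 and LIG1 with the adjustment. FEN1 measured 145 and 136 FPKM in DMSO and 102, 120 and 109 FPKM in PKC412, a log2 difference of -0.35 ± 0.12 (adjusted p-value 0.23).

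The values within MDA-MB-468 ran with GC content. Across 42 genes (PCNA-AS1 had no GC value), the PKC412 difference and transcript GC content had a Pearson r of -0.75 and a Spearman rho of -0.74, against -0.42 and -0.54 across 15285 tested genes. Genes share their libraries and are not independent replicates. Of the 21 genes below the median GC content, 20 were above 0 with a median of 0.51, and of the 21 others 11 were, with a median of 0.04. After the adjustment r was -0.33 and rho -0.35. In ZR75-1 r was -0.21 and rho -0.26. Low-GC genes such as CCNE2 (36.9%), RFC3 and PRIM1 thus had the highest values and high-GC genes such as TK1 and E2F1 values below 0, while RPA3 and FEN1 stood below 0 with GC contents near the middle.

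**Figure D4:**
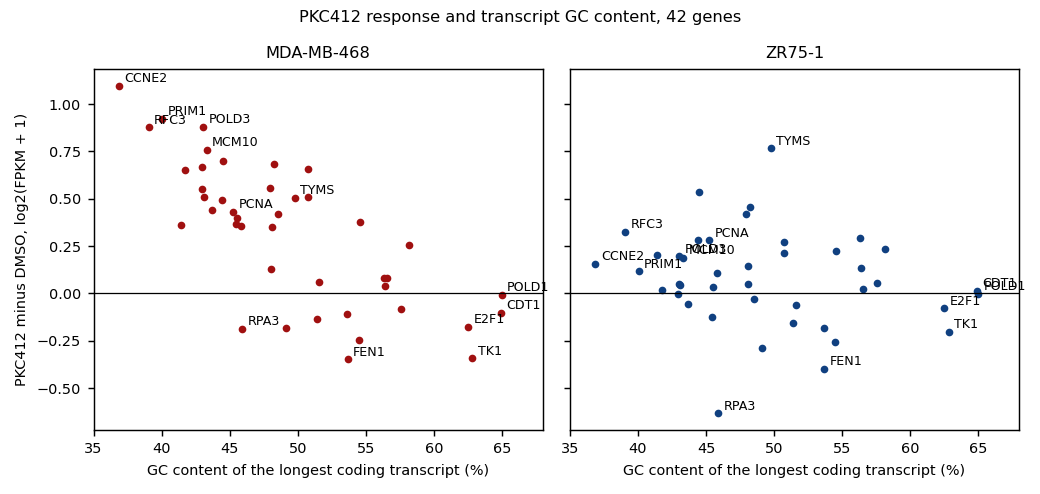
PKC412 minus DMSO on the log2(FPKM + 1) scale against the GC content of the longest coding transcript (%), 1 point per gene for 42 genes, MDA-MB-468 on the left and ZR75-1 on the right. In MDA-MB-468 the points fall from CCNE2 at the upper left to TK1 and E2F1 at the lower right (r = -0.75), and in ZR75-1 they spread about 0 with RPA3 lowest and TYMS highest.

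The samples showed the same order. The median deviation of the 43 genes from their line mean was, in MDA-MB-468, -0.41 and -0.08 with DMSO and 0.32, 0.01 and 0.14 with PKC412, the reverse order of the GC slopes given above. In ZR75-1 it was -0.29 and 0.18 in DMSO and 0.07, -0.24 and 0.37 in PKC412, low in both samples with a high slope and highest in PKC412 3, with the lowest slope. After the adjustment all 10 values lay between -0.10 and 0.06. The DMSO samples of a line differed from each other for these genes, by a median of 0.29 in MDA-MB-468 (34 of 43 higher in DMSO 2) and 0.44 in ZR75-1 (33 of 43). This difference between controls was larger than the PKC412 difference for 15 of 43 genes in MDA-MB-468 and 34 of 43 in ZR75-1.

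In ZR75-1, TYMS had the highest value after PCNA-AS1. It measured 13.2 and 32.2 FPKM in DMSO and 37.4, 27.4 and 44.8 FPKM in PKC412, where PKC412 2 lay below DMSO 2 (0.77 ± 0.36, adjusted p-value 0.48 in limma). RFC5, a clamp loader subunit, measured 1.99 and 5.30 FPKM and then 4.77, 3.96 and 7.71 FPKM (0.54 ± 0.36, adjusted p-value 0.64). RPA1 measured 6.25 and 11.3 FPKM and then 11.6, 8.79 and 16.5 FPKM (0.46 ± 0.32, adjusted p-value 0.65). In each of these the treatments overlapped, and the low DMSO value came from DMSO 1. Without DMSO 1 the difference was 0.15 for TYMS, -0.001 for RFC5 and 0.08 for RPA1.

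RPA3 lay below its DMSO level in ZR75-1. It measured 62.9 and 81.6 FPKM in DMSO and 49.5, 47.6 and 40.8 FPKM in PKC412, without overlap (-0.63 ± 0.22, adjusted p-value 0.36). Its sign held with every rescaling and with each sample left out (-0.82 to -0.45), and with the GC and length adjustment it was -0.78, still short of the threshold. In MDA-MB-468 RPA3 measured 40.9 and 54.7 FPKM in DMSO and 33.4, 53.5 and 39.7 FPKM in PKC412, which overlapped (-0.19 ± 0.22).

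Besides RPA3, the ZR75-1 treatments did not overlap for 4 genes with PKC412 lower (GINS2, POLA2, RFC2 and FEN1) and 1 with PKC412 higher (LIG1), 5 lower and 1 higher in all. Over all genes 6.98% were lower and 14.8% higher in this way. With the GC and length adjustment the counts were 11 and 4, against 13.8% and 16.1% of all genes. These counts rested on single libraries. Without DMSO 2 they were 18 higher and 8 lower (41.8% and 17.7% of all genes). Without PKC412 2 they were 9 and 6 (31.8% and 11.5%), and without DMSO 1 they were 2 and 9 (19.7% and 15.6%). Without PKC412 1 they were 2 and 5 (18.9% and 9.25%). FEN1 measured 25.9 and 23.8 FPKM in DMSO and 20.2, 16.7 and 19.0 FPKM in PKC412 (-0.40 ± 0.12, adjusted p-value 0.25). GINS2, the second GINS subunit, measured 39.8 and 39.1 FPKM and then 33.1, 31.7 and 31.4 FPKM (-0.29 ± 0.10, adjusted p-value 0.33), with little spread within either treatment.

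PCNA was examined beside PCNA-AS1, an RNA transcribed from the opposite strand of the same locus. PCNA-AS1 lies at chr20:5119586-5119969 (GRCh38, plus strand, 384 bases), and 329 of its bases (85.7%) fall within exon 2 of the 7 exons of PCNA, chr20:5119578-5119914 on the minus strand. Of the shared bases, 213 are coding and the rest are 5′ UTR of PCNA. The coding stretch, chr20:5119586-5119798, opens the PCNA reading frame and is shown on the PCNA strand with the start codon in capitals (GENCODE 29), because a read from these bases could be counted for either gene.
PCNA coding bases within PCNA-AS1: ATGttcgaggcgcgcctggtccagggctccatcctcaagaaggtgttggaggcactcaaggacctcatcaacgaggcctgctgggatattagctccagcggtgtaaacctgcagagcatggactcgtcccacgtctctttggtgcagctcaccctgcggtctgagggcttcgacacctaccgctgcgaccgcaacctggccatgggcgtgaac
The methods name an Illumina TruSeq kit, and the sources used here do not say whether the libraries kept the strand. Reads of PCNA and PCNA-AS1 therefore cannot be told apart over these bases. How the FPKM divided such reads between the genes is not given either.

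PCNA-AS1 was the replication gene that passed the threshold with PKC412 in MDA-MB-468. Because of the shared bases, its FPKM may include reads of PCNA, and its values near 0 may reflect shared reads given to PCNA. Neither was tested. It was listed at 1.88e-07 and 0.0520 FPKM in DMSO and at 155, 32.2 and 89.4 FPKM in PKC412. All treated samples were far above both DMSO samples, but differed among themselves in the order of their GC slopes, with PKC412 1 (the lowest slope) highest and PKC412 2 lowest. The log2(FPKM + 1) difference was 6.24 ± 0.92 (SE, adjusted p-value 0.021 in limma), and no fold is given against values this near 0. The call was lost without DMSO 1 (adjusted p-value 0.17), DMSO 2 (0.11), PKC412 1 (0.073) or PKC412 3 (0.092), and held without PKC412 2. In ZR75-1 it was listed at 3.13e-113 and 6.95 FPKM in DMSO and 3.09, 5.66 and 9.69 FPKM in PKC412, which overlapped (1.23 ± 0.92, adjusted p-value 0.68). The difference of the effects between the lines did not pass (5.01, adjusted p-value 0.29). In DMSO the lines overlapped (-1.46 ± 1.00), and in PKC412 MDA-MB-468 was higher by 3.55 ± 0.82 (adjusted p-value 0.0062).

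PCNA itself did not pass the threshold with PKC412. In MDA-MB-468 every treated sample was above both DMSO samples, with a difference of 0.43 ± 0.34 (adjusted p-value 0.46). In ZR75-1 the treatments overlapped, with a difference of 0.28 ± 0.34 (adjusted p-value 0.83). DMSO 1 was the low PCNA sample of each line, at 296 and 35.2 FPKM, and without it MDA-MB-468 gave 0.09 and ZR75-1 gave -0.25. Weighted by transcript length, PCNA-AS1 took 7.47%, 1.84% and 4.90% of the 2 genes' fragments in the PKC412 samples of MDA-MB-468 and 0.0031% or less in its DMSO samples. In ZR75-1 it took 2.56% in DMSO 2 and 1.26%, 3.26% and 3.51% in PKC412. With the fragments of both added by length, the PKC412 difference was 0.50 in the basal-like line and 0.30 in the luminal line, and with their FPKM added 0.66 and 0.35. None of these passed. Between the lines the sums differed by 2.82 and 2.78 in DMSO, close to the 2.84 of PCNA alone and past the threshold.

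**Figure D5:**
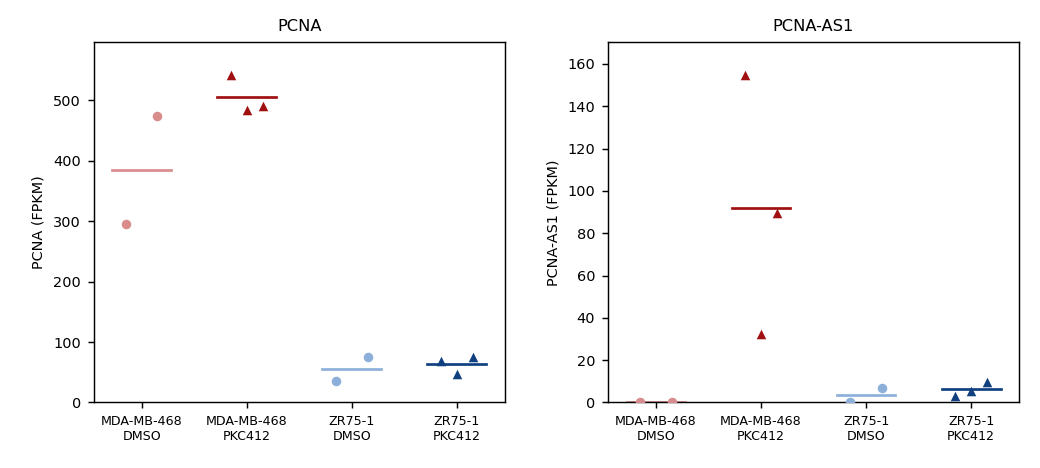
FPKM of PCNA (left) and PCNA-AS1 (right) in each of the 10 samples, with a line at each group mean. PCNA separates the lines in both treatments, while PCNA-AS1 stands near 0 in the MDA-MB-468 DMSO samples and at 155, 32.2 and 89.4 FPKM in the PKC412 samples.

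Other genes of the pathway were counted from lists of known roles. Of 36 further replication genes, among them initiation kinases, checkpoint mediators and chromatin assembly factors, 18 were higher in MDA-MB-468 in DMSO and 1 (POLD4, a small subunit of polymerase delta) lower, where all genes gave 26.5% and 15.9%, with a median of 0.81. In PKC412, 26 were higher and 2 lower (POLD4 and RECQL4), where all genes gave 37.0% and 21.6%, with a median of 1.19. With PKC412 none of the 36 passed in limma in either line, and the medians were 0.50 and 0.08. At an unadjusted p-value under 0.05, 4 were higher and 1 lower in MDA-MB-468 (11.1% and 2.78%, all genes 11.1% and 5.25%), and 0 and 1 in ZR75-1 (0% and 2.78%, all genes 8.05% and 3.12%). An E2F site was found in 8 of the 30 with a window (26.7%).

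Of 19 E2F, RB and G1/S regulators, 5 were higher in MDA-MB-468 in DMSO (E2F2, TFDP2, CCNE1, CDK2 and SKP2) and 1 lower, near the all-gene share of 26.5% for the higher ones. All genes gave 15.9% lower. The lower one was CDKN1A, the CDK inhibitor p21, at 27.7 ± 0.772 FPKM in MDA-MB-468 and 182 ± 35.9 FPKM in ZR75-1 (-2.66). CDKN1A was also the only one of the 19 to pass with PKC412, in MDA-MB-468, where it rose to 60.5 ± 1.18 FPKM (n = 3), a log2 difference of 1.1 ± 0.14 (adjusted p-value 0.010 in limma). In ZR75-1 it was at 221 ± 25 FPKM in PKC412 (0.28, adjusted p-value 0.50), and the difference of the effects did not pass (0.82, adjusted p-value 0.25). Of all genes, 0.691% rose and 0.566% fell with PKC412 in MDA-MB-468, and 0.747% and 0.199% in ZR75-1. At an unadjusted p-value under 0.05, 3 of the 19 were higher and 0 lower in MDA-MB-468 (15.8% and 0%, all genes 11.1% and 5.25%). In ZR75-1 the counts were 1 and 0 (5.26% and 0%, all genes 8.05% and 3.12%). In PKC412, 11 of the 19 were higher in MDA-MB-468 and 2 lower (CDKN1A and E2F5), where all genes gave 37.0% and 21.6%. RB1, the retinoblastoma gene, was low in both lines in DMSO. It was at 0.0511 ± 0.014 FPKM in MDA-MB-468 and 0.375 ± 0.377 FPKM in ZR75-1 (adjusted p-value 0.61 in limma). In PKC412 these levels were 0.109 ± 0.00445 and 1.59 ± 1.69 FPKM (adjusted p-value 0.056).

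Of 24 genes of G2 and mitosis, 7 were higher in MDA-MB-468 in DMSO and 0 lower in limma, with a median of 0.66, and in PKC412 9 were higher and 0 lower, with a median of 1.12. The higher counts are near the all-gene shares of 26.5% and 37.0%, while 15.9% and 21.6% of all genes were lower. At an unadjusted p-value under 0.05 the higher counts were 9 and 12, or 37.5% and 50% of the list, with 0 lower. All genes gave 30.6% and 39.9% higher and 18.8% and 23.1% lower. With PKC412 none passed in limma in either line, with medians of 0.47 and 0.11. At an unadjusted p-value under 0.05, 2 were higher (8.33%) and 0 lower in each line. All genes gave 11.1% and 8.05% higher and 5.25% and 3.12% lower. An E2F site was found in 2 of 21 windows (9.52%).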

How the data were processed

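RNA of MDA-MB-468 and ZR75-1 cells treated for 6 h with DMSO or PKC412 was sequenced, and the authors deposited FPKM per gene symbol for each sample, computed with an in-house pipeline. The submitters' processing notes name CASAVA 1.82, TopHat2 and hg19. The annotation and the program that made the FPKM are not given in the sources used here. The methods describe triplicates, and 2 DMSO samples per line were analysed here. Labels and methods give a dose of 1 µM, and figure legends of the study give a lower one. All treated samples were taken as 1 treatment. No read counts are held, and the lowest value above 0 was 2.194e-318, so depth is unknown. Grouping followed the sample titles.

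Group differences were fitted on log2(FPKM + 1) by limma (version 3.58.1, R 4.3.3), with a mean for each of 4 groups, eBayes with a trend (6 residual degrees of freedom before moderation), genes above a group mean of 0.1 FPKM, and Benjamini-Hochberg adjustment over all of them at 0.05. With 2 against 3 samples an exact permutation test of a gene cannot go below p = 0.1, so none was used. The fit was tested on simulated data with independent noise for each gene. These held no GC slope between libraries, so that test cannot show how the fit behaves with such a slope. Python 3.11.15, pandas 2.3.3, scipy 1.17.1 and matplotlib 3.10.9 made the tables and figures. Values in every sample are given for PCNA and PCNA-AS1, for genes past the threshold with PKC412, for the 5 largest differences per line where fewer passed, and for the 3 largest between the lines; other genes with such values (MCM2, FEN1, GINS2 and RPA3 in both lines) were chosen after their values were seen. The genes and lists were chosen with earlier results of these data known.

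GC content and length came from GENCODE 29 (GRCh38) by symbol for the longest coding transcript, 93.6% of symbols matched; genes without a match took the median. For the adjustment, a polynomial of degree 3 in each was fitted per sample over genes above 1 FPKM and removed. Coordinates and sequences are GRCh38 and not the build of the files. Alternatives were other pseudocounts and limits, rescaling by median ratios or to equal sums (TPM), a replicate block, separate fits, no trend, the GC and length adjustment and each sample left out. The sum of PCNA and PCNA-AS1 by length, and the counts without overlap with a library left out, were added after seeing the data.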

Additional observations from a re-analysis of the deposited data

How the results depend on the processing

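Of 694 values under the alternatives, 641 were classed as unchanged. For a gene this meant the same direction and side of the threshold, also where it passed in neither version. For a median it meant a shift within the spread between samples. For a count it meant a moderate change at most, so that 21 calls in place of 29 were classed as unchanged. The replicate numbers were not taken as pairing the samples: deviations of same-numbered DMSO and PKC412 samples correlated at -0.69 and -0.61 in MDA-MB-468 and 0.08 and -0.62 in ZR75-1. Across the lines they correlated at 0.85 for DMSO and at -0.20, 0.53 and -0.003 for PKC412. The DMSO value is the same for both numbers by construction, because 2 samples deviate from their mean by equal and opposite amounts. With the replicate block, 0 genes passed with PKC412 in MDA-MB-468 in place of 1 (PCNA-AS1, 6.13, adjusted p-value 0.68), and all genes gave 0 and 0 calls there. With the block and the GC and length adjustment PCNA-AS1 also missed (6.03, 0.24), with 1 and 2 calls over all genes. The block leaves 2 residual degrees of freedom. Between the lines in DMSO, POLA1 and POLE2 no longer passed with the block, and 1 gene (RPA3) was lower with the block, with the adjustment and with both, and 1 (RPA3) in PKC412 with both. In PKC412, RFC3 and UHRF1 no longer passed with the block. Leaving out each sample in turn gave 0 to 1 calls with PKC412 in MDA-MB-468. Between the lines in DMSO it gave 21 to 32 higher (21 without MDA-MB-468 DMSO 2) and 0 to 1 lower (PCNA-AS1 without ZR75-1 DMSO 1), and in PKC412 35 to 41 higher.

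The 3-fold limit was met in MDA-MB-468 by 1 gene with a pseudocount of 1 or with median ratios, and by 1 to 2 with a sample left out. In ZR75-1 it was met by 0 to 2 (2 without DMSO 2). The median of the 43 genes with PKC412 in ZR75-1 reversed to -0.104 with median ratios, -0.043 with the block, -0.068 with the adjustment and -0.089 with both, and ran from -0.16 to 0.34 with a sample left out. In MDA-MB-468 it ran from 0.18 to 0.55. With a sample left out, the ZR75-1 differences ran from -0.25 to 0.81 for PCNA, -0.26 to 2.73 for PCNA-AS1 and -0.001 to 1.08 for RFC5. The difference of the PCNA effect between the lines reversed to -0.019 with the adjustment and ran from -0.38 to 0.68, and PCNA-AS1 between the lines in DMSO ran from -2.96 to 0.037. The cause of these reversals was not tested.

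Calls over all genes split differently under other scalings: with PKC412 in MDA-MB-468, 111 higher and 91 lower became 106 and 132 with median ratios and 63 and 29 with equal sums. In ZR75-1, 120 and 32 became 116 and 12 with equal sums. Between the lines, 4266 and 2556 became 3542 and 3202 in DMSO with median ratios, and 5944 and 3477 became 4543 and 4478 in PKC412. With the adjustment for GC content and length, 332 and 270 genes passed in MDA-MB-468 and 291 and 184 in ZR75-1. With 2 and 3 samples a group and unknown depth, small differences with PKC412 may have been missed, and no detection limit is given.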
